A study of Mus musculus with 36 samples.

Results

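The 37 genes described here encode the proteins of homologous recombination and of the Fanconi anaemia pathway, and were chosen by their symbols from the 54842 genes of the count table. RNA was sequenced from 36 libraries of mouse embryonic fibroblasts (MEF cells) in which a nuclease-dead Cas9 was sent to the major satellite repeats (MSR), the tandem DNA arrays of pericentric heterochromatin. Both lines expressed the same MSR guide RNA constantly and carried a doxycycline-inducible effector, which was dCas9 alone in MSR-dCas9-Control cells and dCas9 fused to the transcriptional activator VPR in MSR-dCas9-Activator cells. Each line was sampled uninduced, at the end of induction, and 3 h, 6 h, 12 h and 24 h after doxycycline had been withdrawn, with 3 libraries per group in 12 groups. Doxycycline was given at 10 ng/ml for 24 h to the Control line and for 6 h to the Activator line, so that the lines also differed in the length of induction. The lines were mixed cultures selected after PiggyBac transposition and not single clones. Each line carried its own effector, so line and effector cannot be told apart. The replicates are described by the study as biological, and the p-values measure the spread between these libraries.

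Homologous recombination repairs double-strand breaks and stalled replication forks by copying an intact sister chromatid. The broken end is resected to single-stranded DNA, BRCA1 and BARD1 with PALB2 bring in BRCA2, BRCA2 loads the recombinase, and the joint molecules that form are either dissolved by the BLM helicase complex or cut by nucleases. The Fanconi anaemia pathway handles DNA interstrand crosslinks. Its core complex attaches ubiquitin to FANCD2 and FANCI, after which the crosslink is cut and the resulting break is passed to recombination. Many of these genes are transcribed most in the S and G2 phases of cycling cells.

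The libraries held between 27376846 and 57371803 counts on genes, with a median of 42865961, and every member had counts in every library, the lowest being 31 for Fancf. All 37 members passed the filter on low counts and were tested among 28536 genes. Levels are given in CPM, counts scaled by library size. Transcripts of the MSR family GSAT_MM, the target of the guide, lay between 22.4 and 51.6 CPM, taken on gene counts, in Control libraries, between 53.5 and 101 in uninduced Activator libraries, and between 2324 and 40070 in the Activator libraries after induction. Fibroblast genes were high, with Col1a1 at a median of 9300 CPM, Fn1 at 7490 CPM and Vim at 2660 CPM, whereas Thy1 did not exceed 0.206 CPM. Of the marker lists for other cell types, Epcam, Adgre1 and Zfp42 had a median of 0 CPM, whereas Csf1r and Cd68 had medians of 9.13 and 4.46 CPM and Pecam1 reached 32.6 CPM.

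Promoters are shown for 3 members that were lower from the end of induction (Brca1, Fancb and Xrcc3) and for Brca2. With the main scaling (TMM, below) Brca2 was lower only at the last time point. Each stretch of 300 bases, from RefSeq (build GRCm38.p6), runs 5′ to 3′ on the gene's strand and ends 50 bases past the annotated start site. Capitals mark the CCAAT box on either strand (CCAAT or ATTGG) and, in Brca2, a match to an E2F-type motif.
Brca1, chr11:101551906-101552205, minus strand: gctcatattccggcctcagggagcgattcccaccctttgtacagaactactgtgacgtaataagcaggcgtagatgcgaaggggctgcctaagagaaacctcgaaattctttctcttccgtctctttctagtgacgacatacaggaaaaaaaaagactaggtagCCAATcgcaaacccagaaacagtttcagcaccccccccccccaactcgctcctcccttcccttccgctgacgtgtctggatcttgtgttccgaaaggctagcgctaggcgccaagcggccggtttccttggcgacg
Fancb, chrX:164980342-164980641, plus strand: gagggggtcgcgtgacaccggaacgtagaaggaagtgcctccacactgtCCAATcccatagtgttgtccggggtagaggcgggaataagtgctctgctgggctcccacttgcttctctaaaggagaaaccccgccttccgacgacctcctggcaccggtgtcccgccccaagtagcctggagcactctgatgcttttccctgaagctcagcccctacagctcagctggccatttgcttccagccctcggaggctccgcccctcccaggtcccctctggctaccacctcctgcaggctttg
Xrcc3, chr12:111813830-111814129, minus strand: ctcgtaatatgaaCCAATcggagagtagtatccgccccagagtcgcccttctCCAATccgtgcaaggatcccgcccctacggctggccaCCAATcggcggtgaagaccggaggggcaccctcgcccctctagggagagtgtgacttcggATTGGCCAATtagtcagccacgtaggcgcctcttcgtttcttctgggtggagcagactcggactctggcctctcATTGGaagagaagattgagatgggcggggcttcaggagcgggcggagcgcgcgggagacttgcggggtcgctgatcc
Brca2, chr5:150522371-150522670, plus strand: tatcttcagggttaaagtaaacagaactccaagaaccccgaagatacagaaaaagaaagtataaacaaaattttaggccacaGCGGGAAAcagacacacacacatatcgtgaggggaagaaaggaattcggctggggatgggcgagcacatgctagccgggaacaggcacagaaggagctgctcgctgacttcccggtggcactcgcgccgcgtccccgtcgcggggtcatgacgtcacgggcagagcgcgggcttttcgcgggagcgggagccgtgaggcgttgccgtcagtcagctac

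Brca1 and Fancb each held 1 CCAAT box, 86 and 201 bases before the start site, and Xrcc3 held 6, between 237 and 27 bases before it. Brca2 had no CCAAT box and held the E2F-type letters GCGGGAAA at 168 bases before the start site. The promoters shown are too few to tell whether a motif goes with the time at which a gene was lower. Bard1 and Fancg held E2F-type letters and no CCAAT box, and both were lower at the end of induction. Dna2 and Gen1 had neither motif and were also lower then, whereas Brip1 held CCAAT boxes and was not.

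The first question is how far these genes differed between the Activator and the Control line at each time point. The difference is given as a log2 fold change, Activator against Control, with its standard error (SE), and a gene is said to have passed where edgeR's quasi-likelihood test gave a Benjamini-Hochberg adjusted p below 0.05 over all 28536 genes. Before induction 1 member, Rbbp8, was lower (0.343% of all genes tested) and 0 were higher (0.883% of all genes). Rbbp8 passed there in 3 of 17 settings, at -0.26 to -0.35, and 0 members were lower with library size or mitochondrial scaling. The unadjusted p was below 0.05 for 15 members that were lower and for 0 that were higher, and DESeq2 had 4 lower and 0 higher. At the end of induction, 19 of the 37 members were lower (25.5% of all genes) and 6 were higher (31.7%). At 3 h the members again numbered 19 lower and 6 higher (31.4% and 39.6% of all genes). At 6 h there were 25 lower and 2 higher (33.3% and 40.8%), at 12 h 30 lower and 1 higher (34.1% and 41.1%), and at 24 h 31 lower and 1 higher (29.4% and 34.5%). These counts use TMM scaling (trimmed mean of M-values). With libraries scaled to their mitochondrial mRNAs instead, 26, 31, 36, 36 and 31 members were lower over the same 5 times and 0 were higher, and with DESeq2 size factors 24 were lower and 3 higher at 12 h.

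The members thus had a share of lower genes that went from 51.4% at the end of induction to 83.8% at 24 h, while the share over all genes stayed between 25.5% and 34.1%. In bulk RNA, fewer cycling cells and less of these transcripts in each cell cannot be told apart, and neither was tested. Of 27 cell cycle markers, 4 were lower and 6 higher at the end of induction (25.5% and 31.7% of all genes). At 24 h 23 of the markers were lower and 0 higher (29.4% and 34.5%). Under the study's stricter limits, which add a mean normalised count above 100 and a change beyond 2-fold, the end of induction had 4 lower members (5.71% of all genes). There were 6 after 3 h (9.45%) and 10 after 6 h (10.3%). The numbers were 14 after 12 h (10.9%) and 13 after 24 h (4.12%). With these limits 18 members were lower at 1 time point or more (14.3% of all genes), and the highest log2 fold change of any member against Control, that of Brip1 at 3 h, was 0.63, or 0.03 with the scaling to mitochondrial mRNAs. With DESeq2 the last 2 counts were 9 and 7, and with mitochondrial scaling the first 4 were 8, 15, 23 and 26, again without a share of all genes. The count at 24 h rested on single libraries, since it was 6 without Activator replicate 1 and also 6 without Activator replicate 3.

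**Figure D1:**
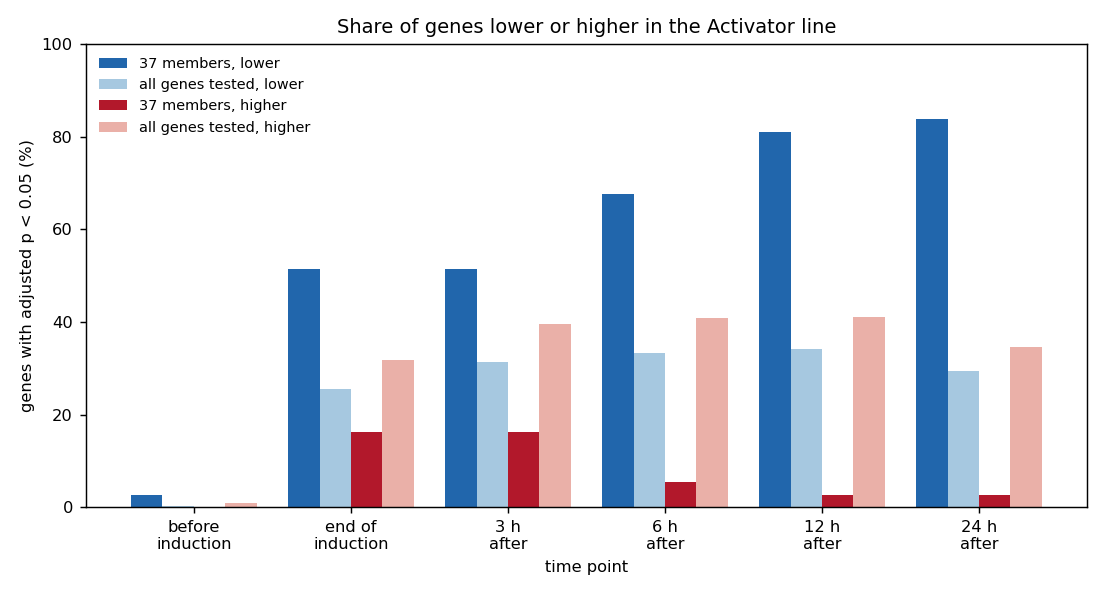
Share of genes with an adjusted p below 0.05 (vertical axis, %) at each time point (horizontal axis). Dark bars are the 37 members and pale bars all 28536 genes tested, lower (blue) or higher (red) in the Activator line; with TMM scaling the members' lower share reaches 83.8% at 24 h against 29.4% of all genes, and with mitochondrial scaling 0 members were higher.

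Over the members the median log2 fold change was -0.11 in uninduced cells and -0.28 in induced cells. Over the 4 later times the median moved from -0.32 (3 h) and -0.47 (6 h) to -0.68 (12 h) and -0.79 (24 h). Over all genes tested the medians were 0.03, 0.10, 0.16, 0.13, 0.12 and 0.01 in the same order. These values depend on how libraries are scaled. At 12 h the median of all genes was 0.12 with TMM, 0.33 with DESeq2 size factors and -0.49 when the 13 mitochondrially encoded mRNAs were held level, and the median of the members moved with it, to -0.47 and -1.30. Taken relative to all genes, the members' median at 12 h was -0.80 with each of these 3 scalings, and at 24 h it was again -0.80 with each. A scaling shifts the values of all genes nearly alike, and taking off their median removes that shift. This agreement was therefore fixed in advance and does not test the scalings. At 12 h, 34 of 37 members lay below the median of all genes, and at 24 h 36 of 37 did so. Mitochondrial mRNAs made up 1.45% to 2.56% of gene counts in Control libraries and up to 3.60% in Activator libraries, and the part of this in the scaled values was not tested further.

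**Figure D2:**
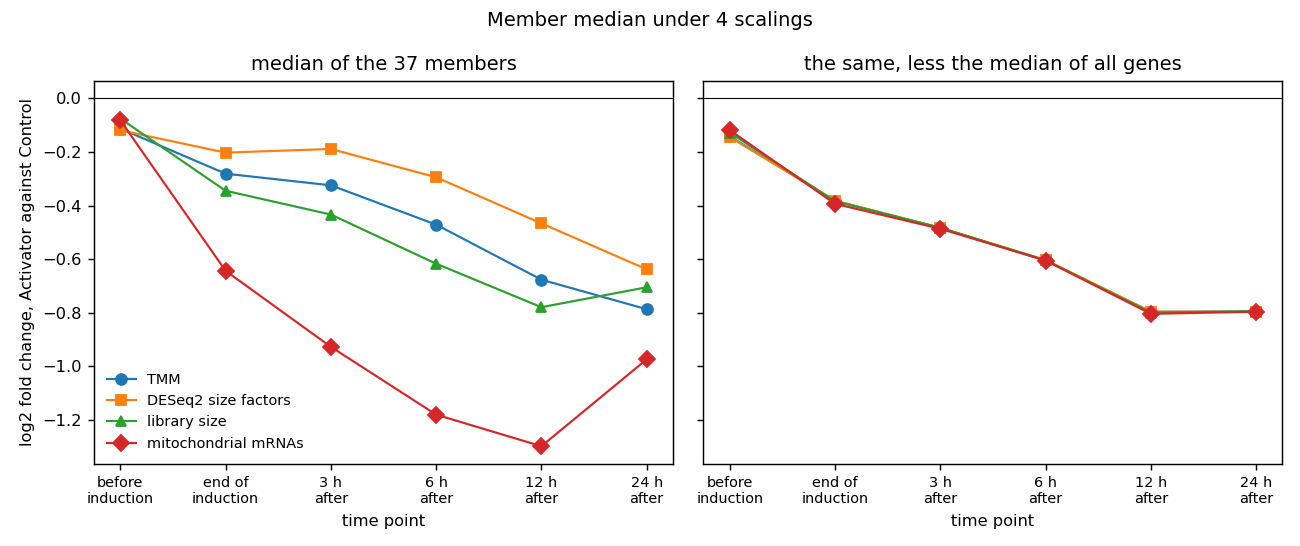
Median log2 fold change of the 37 members (vertical axis, Activator against Control) by time point (horizontal axis) under 4 scalings, as fitted (left) and after the median of all genes is taken off (right). The lines part on the left, between -0.47 and -1.30 at 12 h, and fall together on the right, near -0.80 at 12 h and 24 h. They must do so on the right, because a scaling shifts all genes nearly alike and the median takes that shift off.

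Members were not lowest at the same time. The lowest log2 fold change after induction fell at 24 h for 19 members, at 12 h for 10, at 6 h for 4 and at 3 h for 4. This order holds for TMM scaling, and with mitochondrial scaling the numbers were 5, 22, 6 and 4. The map of all members by time point shows the early and deep differences of Brca1, Xrcc2, Xrcc3, Fancb, Fancf and Dna2, and the late ones of Fancd2 and Brca2, which were lowest at 24 h with both scalings. In all, 14 members were lower with an adjusted p below 0.05 at all 5 time points from the end of induction on (14.7% of all genes). They numbered 12 with DESeq2 size factors, 18 with library size and 23 with mitochondrial scaling, where the share of all genes was not counted. Among the 14, Palb2 passed at the end of induction in 7 of 18 settings and Mre11a in 13 of 18.

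**Figure D3:**
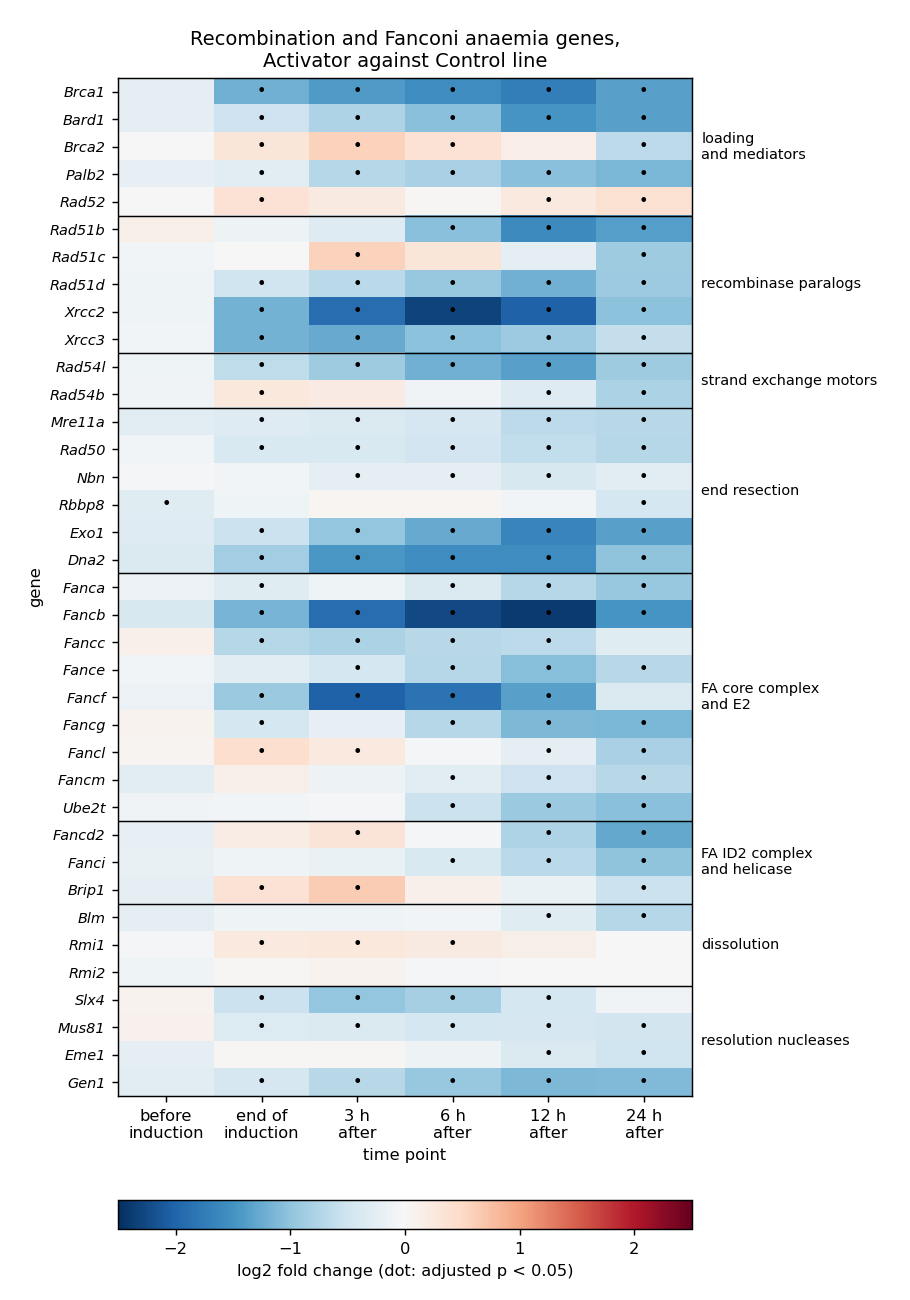
Log2 fold change of the 37 members (rows, grouped by role) in the Activator against the Control line at the 6 time points (columns). Blue is lower and red higher, and a dot marks an adjusted p below 0.05; red cells at the end of induction and 3 h, such as Brip1 at 0.63, are blue by 24 h for most of these genes, and with mitochondrial scaling no member passed as higher at any time.

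Among the genes that load the recombinase, Brca1 was lower from the end of induction on, Bard1 and Palb2 fell further with time, Brca2 was lower at 24 h alone, and Rad52 was not lower at any time. BRCA1 forms a ubiquitin ligase with BARD1 that favours resection and recruits PALB2. Brca1 measured 103, 101 and 96.3 CPM in the 3 induced Control libraries and 43.3, 47.9 and 38.9 CPM in the induced Activator libraries. At 12 h the Control libraries held 109, 107 and 101 CPM and the Activator libraries 35.1, 27.1 and 33.5 CPM. The groups did not overlap at any time point, and before induction too the Activator libraries (81.7, 75.2 and 76.5 CPM) lay below the Control libraries (93.3, 92 and 86.6 CPM). Its log2 fold change was -0.22 (SE 0.09, adjusted p = 0.324) before induction, -1.21 (SE 0.09, adjusted p = 9.54e-12) at the end of induction and -1.73 (SE 0.09, adjusted p = 3.08e-15), or 3.32-fold lower, at 12 h.

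Bard1 went from -0.51 at the end of induction to -1.48 at 12 h and -1.37 at 24 h. Palb2, the bridge between BRCA1 and BRCA2, went from -0.28 to -1.04 and -1.14 at the same times. Brca2, whose product places the recombinase on single-stranded DNA, behaved otherwise. In the induced Activator libraries it measured 89.3, 59.2 and 100 CPM against 73.1, 70.7 and 57.7 CPM in the Control libraries, so that the groups overlapped. At 3 h the Activator libraries (87.8, 86.1 and 76.5 CPM) all lay above the Control libraries (57.6, 53.7 and 56.2 CPM). By 24 h they held 46.9, 41.3 and 41.7 CPM against 70.5, 70.5 and 62.5 CPM and lay below all of them.

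The log2 fold change of Brca2 was 0.30 (SE 0.11, adjusted p = 0.024) at the end of induction, where it passed in 9 of 18 settings. The call was lost at 0.14 without Activator replicate 3, at 0.27 without Activator replicate 1 and at 0.22 without Control replicate 3. The log2 fold change was 0.58 (adjusted p = 5.25e-05) at 3 h, which became -0.02 with mitochondrial scaling, and -0.65 (adjusted p = 1.71e-05) at 24 h. RAD52, which anneals single strands in mammals, had the only gene to be higher at 24 h. Rad52 measured 16.7, 13.8 and 17.4 CPM in the Activator libraries at 24 h and 12.5, 12.7 and 11.7 CPM in the Control libraries, without overlap. Its log2 fold change was 0.35 at the end of induction and -0.01 there with mitochondrial scaling, and 0.37 (SE 0.10, adjusted p = 0.00191) at 24 h, where that scaling left 0.19.

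The recombinase paralogs stabilise the recombinase filament, RAD51B, RAD51C, RAD51D and XRCC2 in a complex of their own and RAD51C also with XRCC3. With TMM scaling Xrcc2, Xrcc3 and Rad51d were lower from the end of induction, Rad51b was lower from 6 h, and Rad51c only at 24 h. Xrcc2 held 24.5, 29.9 and 25.8 CPM in the induced Control libraries and 11.1, 13.5 and 10.8 CPM in the induced Activator libraries. At 6 h it stood at 26.7, 30.6 and 26.5 CPM in Control and 5.12, 6.77 and 5.02 CPM in Activator libraries, 4.96-fold lower (log2 fold change -2.31, SE 0.16, adjusted p = 8.79e-13). At 24 h the Activator libraries had 12.4, 16.2 and 14.5 CPM, above those at 6 h and still below the 30.4, 27.4 and 29.6 CPM of the Control libraries.

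Xrcc3 held 14.2, 14.8 and 16 CPM in the induced Control libraries and 6.59, 7.44 and 5.93 CPM in the induced Activator libraries. The log2 fold change of Xrcc3 was -1.18 (SE 0.13, adjusted p = 2e-08) at the end of induction, -1.25 at 3 h and -0.60 at 24 h, so that the difference was largest early. Rad51b overlapped between the lines at the end of induction, with 11.9, 9.82 and 12.2 CPM in Activator and 11.4, 13.7 and 12 CPM in Control libraries. At 12 h it held 4.91, 4.44 and 4.67 CPM against 14.1, 14.8 and 13.4 CPM, a log2 fold change of -1.59 (SE 0.16, adjusted p = 1.15e-09). At 24 h Activator replicate 2, at 8.26 CPM, stood above the 4 and 4.42 CPM of the other Activator libraries, and all 3 remained below the Control libraries.

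Rad51d went from -0.50 at the end of induction to -1.20 at 12 h. Rad51c was 0.01 at the end of induction, 0.58 (adjusted p = 0.0014) at 3 h, a sign that turned with mitochondrial scaling, and -0.88 (adjusted p = 1.58e-05) at 24 h. The motor proteins RAD54L and RAD54B move along DNA during strand exchange. Rad54l was lower at all 5 times, with -0.64 at the end of induction and -1.36 at 12 h, and shares 15.4% of its exon bases with Lrrc41 on the opposite strand. Rad54b was 0.27 at the end of induction, with the opposite sign under mitochondrial scaling, and -0.79 at 24 h; it shares 35.8% of its exon bases with Fsbp on the same strand, so its counts are uncertain.

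**Figure D4:**
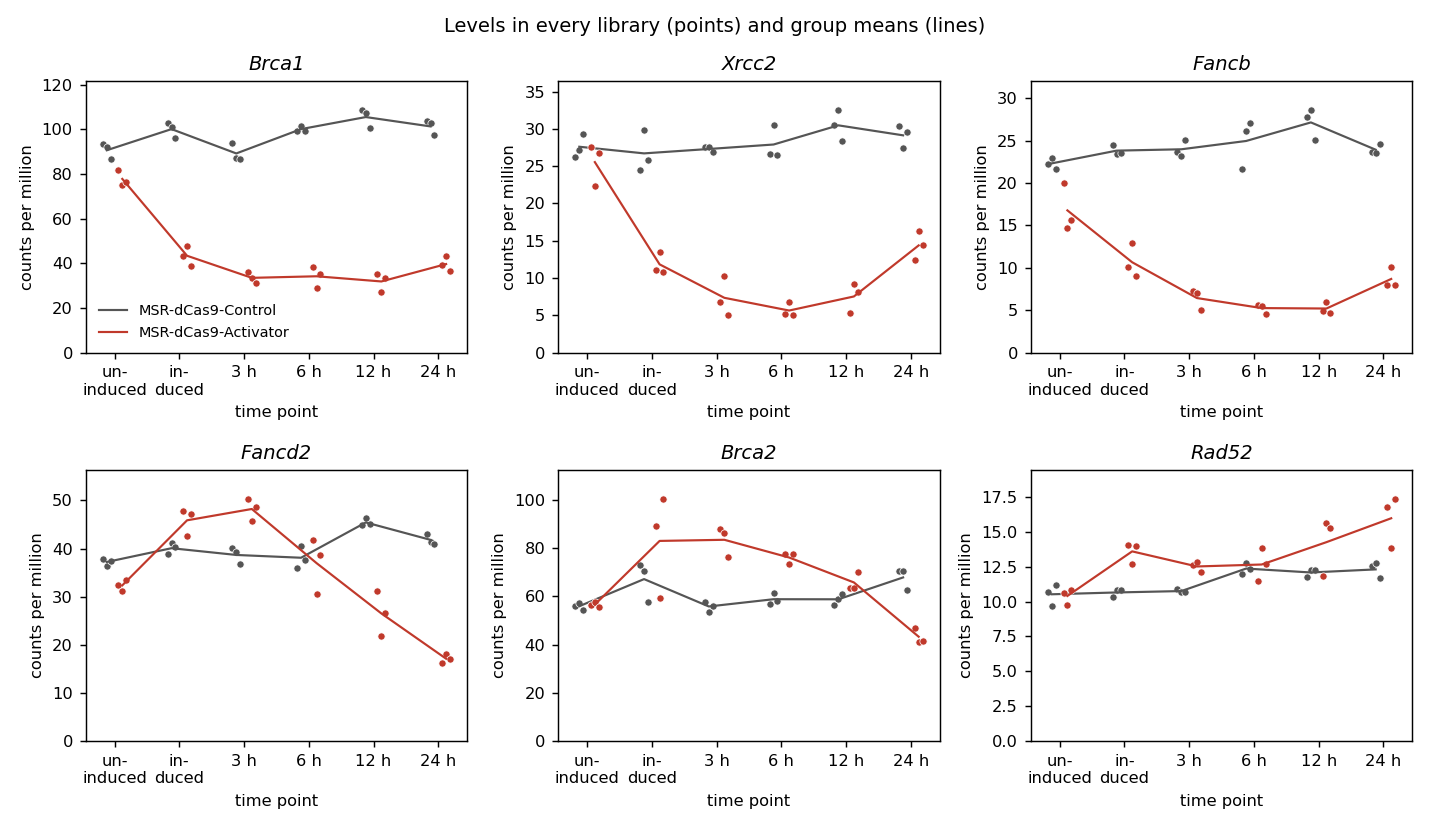
Levels (CPM; vertical axes, from 0) of 6 members in every library (points; grey Control, red Activator) with group means (lines) at the 6 time points (horizontal axes). Brca1, Xrcc2 and Fancb are already separated at the end of induction, Fancd2 and Brca2 cross from above to below the Control line, and Rad52 ends at 13.8 to 17.4 CPM against 11.7 to 12.7 CPM; with mitochondrial scaling Fancd2 at the end of induction and 3 h, Brca2 up to 12 h and Rad52 up to 12 h lie below 0 on the log2 scale.

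The genes of end resection differed in how far they were lower. The MRE11, RAD50 and NBN proteins form the complex that senses broken ends and starts resection, with CtIP (Rbbp8), and EXO1 and DNA2 extend it. Exo1 and Dna2 had the deepest differences of the 6, with -1.64 and -1.56 at 12 h. Dna2 held 9.31, 14 and 14.1 CPM in the Activator libraries at 12 h against 37.8, 36.3 and 35.2 CPM in the Control libraries. Exo1 held 24.8, 22 and 21.4 CPM against 74.3, 66.1 and 72.7 CPM, so that neither gene overlapped between the lines. Exo1 had a log2 fold change of -0.33 (adjusted p = 0.0505) before induction and Dna2 one of -0.36 (adjusted p = 0.175), neither of which passed. Less the difference before induction, Exo1 and Dna2 stood at -1.31 and -1.20 at 12 h. At 24 h they stood at -1.02 and -0.65 on that basis, with Rad50 also at -0.65.

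Rad50 was lower by less. It held 47.1, 52.8 and 44.1 CPM in the induced Activator libraries and 65.9, 66.2 and 55.7 CPM in the induced Control libraries, which did not overlap. Its log2 fold change was -0.38 (SE 0.08, adjusted p = 0.000199) at the end of induction and -0.72 (adjusted p = 1.65e-08) at 24 h. Nbn had the smallest changes of the complex. At 24 h it held 27.6, 27.6 and 32.5 CPM in Activator and 33.7, 34.6 and 37.5 CPM in Control libraries. Its log2 fold change there was -0.27 (adjusted p = 0.00534) and passed in 11 of 18 settings. Among the others were those without Activator replicate 1 (-0.11), with DESeq2 (-0.12) and less the difference before induction (-0.22). Mre11a went from -0.33 to -0.69 over the same span. Rbbp8 was lower before induction (-0.30) and at 24 h (-0.44), and lay between -0.12 and 0.04 from the end of induction to 12 h.

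The 9 genes of the Fanconi core complex and its E2 enzyme were all lower at 12 h with an adjusted p below 0.05 (34.1% of all genes), although Fancl passed in only 4 of 18 settings. FANCB belongs to the catalytic module with FANCL, the E3 ligase subunit, while FANCA and FANCG, FANCC, FANCE and FANCF form further parts, and FANCM anchors the complex to DNA. Fancb had the lowest log2 fold change of any member with TMM scaling, within its SE of that of Xrcc2, which was lowest with mitochondrial scaling. It held 24.5, 23.5 and 23.6 CPM in the induced Control libraries and 10.1, 12.9 and 8.98 CPM in the induced Activator libraries. At 12 h it held 27.8, 28.6 and 25.1 CPM against 4.91, 6.02 and 4.67 CPM, 5.22-fold lower (log2 fold change -2.38, SE 0.14, adjusted p = 1.02e-14). Before induction the Activator libraries (20, 14.7 and 15.7 CPM) also lay below the Control libraries (22.3, 23 and 21.7 CPM), at -0.41 (adjusted p = 0.124), which did not pass.

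Fancf, an intronless gene, was lowest early and came part of the way back by 24 h. In the Activator libraries it held 4.33, 4.46 and 4.35 CPM uninduced, 0.888, 1.63 and 1.15 CPM at 3 h and 2.62, 3.24 and 3.15 CPM at 24 h. The Control libraries held 4.47, 4.68 and 5.59 CPM at 3 h and 3.05, 4.13 and 4.37 CPM at 24 h. The lines thus overlapped at the last time. At 24 h the Activator libraries were still below their uninduced level, and the Control libraries also lay below theirs. Of its exon bases 15% are shared with Gas2 on the opposite strand. The fold change of Fancf, as log2, was -2.03 (SE 0.21, adjusted p = 1.09e-09) at 3 h and -0.35 (adjusted p = 0.111) at 24 h. Fancc had a like course with smaller values, from -0.80 at 3 h to -0.30 at 24 h, where it did not pass, and shares 16.4% of its exon bases with Gm16133 on the opposite strand.

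Fancl, Fanca, Fancg, Fancm and Ube2t were lowest at 24 h instead, although with mitochondrial scaling all but Fancl were lowest at 12 h. Fancl shares 13.7% of its exon bases with Vrk2 on the opposite strand. Fancl held 15.7, 13.3 and 16.7 CPM in the induced Activator libraries, above the 12, 12 and 10.2 CPM of the Control libraries. At 24 h it held 7.17, 7.2 and 6.09 CPM, below the 12.4, 12.4 and 11.2 CPM of the Control libraries. Its log2 fold change went from 0.42 (adjusted p = 0.000332), which mitochondrial scaling left at 0.07, to -0.81 (adjusted p = 2.91e-08). The difference of Fancl at 12 h, -0.22, lost its adjusted p below 0.05 without Control replicate 2 or 3 and without Activator replicate 1, 2 or 3, at -0.11 to -0.22. With TMM scaling Fance passed from 3 h on, at -0.44 then and -0.70 at 24 h. Fanca, Fancg and Ube2t, the E2 enzyme of the pathway, stood at -0.94, -1.15 and -1.05 at 24 h, and Fancm at -0.70.

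FANCD2 and FANCI are the pair that the core complex ubiquitinates, and BRIP1 is a helicase that binds BRCA1. With TMM scaling all 3 genes were lower at 24 h and none at the end of induction or 3 h. Fancd2 held 47.8, 42.7 and 47.2 CPM in the induced Activator libraries and 38.8, 41.1 and 40.3 CPM in the Control libraries. At 24 h it held 16.3, 18.1 and 17 CPM against 43.1, 41.3 and 41 CPM. The Activator libraries thus lay above all Control libraries at the first time and below all of them at the second. The log2 fold change was 0.19 (adjusted p = 0.0804) at the end of induction with -0.18 under mitochondrial scaling, 0.32 (adjusted p = 0.00387) at 3 h with -0.29 under that scaling, -0.78 at 12 h and -1.28 (SE 0.10, adjusted p = 7.9e-12), or 2.44-fold lower, at 24 h. Fanci went from -0.12 at the end of induction to -0.68 at 12 h and was lower again at 24 h, with 16% of its exon bases shared with Polg on the opposite strand.

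Brip1 held 56.2, 42.6 and 54.6 CPM in the induced Activator libraries against 43.7, 37.3 and 38.5 CPM in the Control libraries, with some overlap. At 24 h it held 30, 22.9 and 29 CPM against 38.7, 39.9 and 39.8 CPM, without overlap. Its log2 fold change was 0.36 (adjusted p = 0.00136) at the end of induction and -0.00 there with mitochondrial scaling, 0.63 at 3 h and 0.03 with that scaling, and -0.54 (adjusted p = 1.21e-05) at 24 h.

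Of the dissolution complex, with TMM scaling, Blm was lower at 12 h and 24 h and Rmi1 and Rmi2 at no time. BLM, the helicase mutated in Bloom syndrome, works with RMI1 and RMI2, which bind it to a topoisomerase. Blm held 62.3, 50.4 and 61.9 CPM in the induced Activator libraries and 62.7, 60.9 and 63.5 CPM in the Control libraries, which overlapped. At 24 h it held 36.5, 31 and 35.9 CPM against 57.7, 54.2 and 56.5 CPM, a log2 fold change of -0.71 (SE 0.08, adjusted p = 1.74e-08). Rmi1 had log2 fold changes of 0.24, 0.26 and 0.22 at the end of induction, 3 h and 6 h, all of which changed sign with mitochondrial scaling, and shares exon bases on the opposite strand with the abundant Hnrnpk. Rmi2 lay between -0.11 and 0.09 and did not pass at any time.

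Of the nucleases that cut joint molecules, GEN1 acts alone, MUS81 acts with EME1, and SLX4 is the scaffold that MUS81 binds. Gen1 was lower at all 5 times, from -0.41 to -1.12 at 12 h. Slx4 was lowest at 3 h (-0.97, adjusted p = 8.84e-08) and stood at -0.08 (adjusted p = 0.565) at 24 h. Mus81 stayed between -0.34 and -0.46. Eme1 was 0.03 at the end of induction and -0.51 at 24 h; its exons overlap those of the abundant Lrrc59 on the opposite strand, and its counts are uncertain because the strand setting of the counting is not given in the sources used here.

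The second question is what induction did within each line. In the Control line the median log2 fold change of the members, induced against uninduced, was 0.03, and 0 members passed with edgeR (0.161% of all genes lower and 0.0526% higher). The unadjusted p was below 0.05 for 0 that were lower and 2 that were higher. In the Activator line 14 members fell and 11 rose (28% and 32.9% of all genes), and under the study's limits Xrcc2 and Xrcc3 were the 2 that fell (6.02% of all genes), at -1.13 and -1.11. Brca1 changed by -0.84 and Fancf by -0.96. The largest rises were those of Brip1 (0.71), Fancm (0.60), Brca2 (0.55) and Fancd2 (0.50). With mitochondrial scaling, however, 0 members rose and 9 of the 11 changed sign, Brca2 and Fancd2 among them. The median of all genes with that scaling was -0.49.

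By a test of the difference itself, 18 members responded unequally to induction in the 2 lines, 13 of them lower and 5 higher on induction in the Activator than in the Control line (17.7% and 14.5% of all genes), and for Xrcc3 (-1.12) and Xrcc2 (-1.07) also beyond 2-fold (5.46% of all genes). Without the replicate as a block in the fit these numbers were 9 lower and 2 higher. Brca1 had a difference of -0.99 (SE 0.13, adjusted p = 2.03e-06). Brip1 had one of 0.61 (adjusted p = 0.000808). With mitochondrial scaling the counts were 15 lower and 0 higher, and the median of all genes was -0.32.

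The third question is whether the difference between the lines was still growing at the end. Between 12 h and 24 h it moved down for 8 members and up for 6 with an adjusted p below 0.05 (6.38% and 8.7% of all genes), and without the replicate block these numbers were 5 and 3. Fancf, at 1.01 (SE 0.28, adjusted p = 0.014), was the only one beyond 2-fold (2.38% of all genes). Xrcc2 (1.00), Fancb (0.92), Dna2 (0.54), Rad54l (0.47) and Brca1 (0.38) also came closer to the Control line. Rad51c (-0.64), Fancl (-0.59), Fancd2 (-0.50), Rad54b (-0.46), Blm (-0.40), Rbbp8 (-0.37) and Fanci (-0.33) moved further below it. Brca2 (-0.81) crossed from above the Control libraries at 12 h to below them at 24 h. Its log2 fold change at 12 h, 0.16 (adjusted p = 0.199), did not pass and was -0.45 with mitochondrial scaling. The split depended on the scaling, with 9 and 5 members for DESeq2 size factors, 2 and 8 for library size alone and 0 and 6 for mitochondrial scaling, where Blm, Fanci and Rbbp8 changed sign. The values at 12 h and 24 h come from separate libraries of each line.

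**Figure D5:**
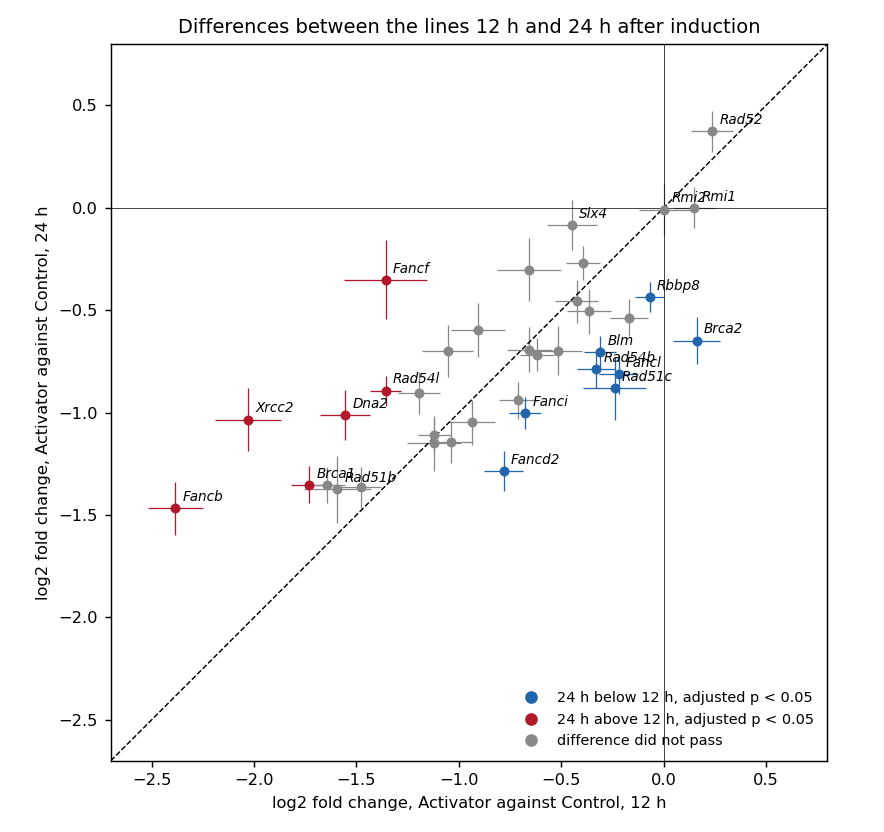
Log2 fold change in the Activator against the Control line at 12 h (horizontal axis) and 24 h (vertical axis) for the 37 members, with SE bars and the line of equality (dashed). Red points (Fancf, Xrcc2, Fancb, Dna2, Rad54l, Brca1) lie nearer 0 at 24 h and blue points lie lower at 24 h than at 12 h, Fancd2 further below 0 and Brca2 from above 0 to below it, each with an adjusted p below 0.05 for the change. The value of Brca2 at 12 h, 0.16, did not itself pass. With mitochondrial scaling no blue point passed and Blm, Fanci and Rbbp8 changed sign.

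Other genes of the same pathways moved in both directions. Of 38 such genes, with TMM scaling, 13 were lower and 4 higher at the end of induction (25.5% and 31.7% of all genes). At 12 h 24 were lower and 6 higher (34.1% and 41.1%), and at 24 h 26 and 3 (29.4% and 34.5%). Their median log2 fold change at 24 h was -0.56, with 31 of the 38 below 0. Rev3l, the catalytic subunit of translesion polymerase zeta, and Ercc4, a nuclease that unhooks crosslinks, stood at -1.15 and -0.97 at the end of induction. Swsap1, a partner of the recombinase paralogs, was at -2.01 at 12 h. The genes for the single-strand binding protein RPA differed among themselves at 12 h, with -0.83 for Rpa3, -0.43 for Rpa2 and 0.42 for Rpa1. Babam2, a subunit of the BRCA1-A complex, and the helicase gene Helq stood at 1.22 and 1.01 at 12 h.

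Markers of cell cycle phases also differed between the lines. Of 27 markers, again with TMM scaling, 4 were lower and 6 higher at the end of induction (25.5% and 31.7% of all genes), with a median log2 fold change of 0.16. At 3 h, 5 were lower and 13 higher (31.4% and 39.6%), with a median of 0.24. At 6 h, 8 were lower and 10 higher (33.3% and 40.8%), with a median of 0.0009. At 12 h, 16 were lower and 3 higher (34.1% and 41.1%), with a median of -0.11 for the 15 S phase markers and -0.67 for the 12 G2 and M markers. At 24 h, 23 were lower and 0 higher (29.4% and 34.5%), with medians of -0.53 and -1.21. At the end of induction the 15 S phase markers had a median of 0.19 and the 12 G2 and M markers one of 0.08, and the markers ranged from -0.66 (Cenpf) to 0.39 (Aurka). The summed level of 8 fibroblast genes was 15000 to 18100 CPM in the Activator libraries at 12 h and 10800 to 19400 CPM at 24 h, against 22400 to 23600 and 23500 to 25700 CPM in the Control libraries. At 12 h 5 macrophage genes summed to 24.4 to 26.1 CPM in Activator and 13.6 to 13.9 CPM in Control libraries, and 4 endothelial genes to 23.7 to 33.6 and 0.377 to 0.558 CPM. Pecam1 made up most of the endothelial sum, since Kdr, Cdh5 and Tie1 did not exceed 1.31, 0.533 and 0.206 CPM in any library. The epithelial sum (4 genes) was 2.58 to 3.53 against 0.531 to 0.711 CPM and the pluripotent cell sum (3 genes) 0.7 to 2.06 against 0.33 to 0.571 CPM, with Cdh1 at a log2 fold change of 4.18 and Pou5f1 at 3.89. Krt8 (0.77), Krt18 (-0.84) and Nanog (-0.47) did not pass at 12 h. Of 7 fibroblast genes tested at 12 h, 4 were lower and 2 higher, Fn1 at 0.38 and Lum at 3.60. The part of all these markers in the members' differences was not tested.

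The level of the members, in FPKM (fragments scaled by library size and exon length), was low to moderate. In the uninduced Control libraries it ran from 1.22 FPKM ± 0.185 (SD, n = 3) for Fancc to 20.3 FPKM ± 1.15 (SD, n = 3) for Eme1, with a median of 5.25 FPKM. Nbn (15.6 FPKM), Mre11a (11.3 FPKM), Brca1 (10.6 FPKM) and Rad50 (10.5 FPKM) followed Eme1, and Mre11a, Brca1 and Rad50 differed from their neighbours among these 3 by less than the sum of their SDs. Neither gene span nor exon length went closely with the difference: Spearman's rho over the 37 members, which share their libraries, was 0.17 for the span and 0.15 for exon length at 12 h, and -0.13 and -0.06 at 24 h. At the end of induction, 3 h and 6 h it was 0.26, 0.29 and 0.27 for the span and 0.11, 0.18 and 0.23 for exon length. Before induction the values were -0.14 and -0.30.

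Of the 37 members, 28 had a promoter in the RefSeq table, in 32 entries. The other members were Rad51d, Xrcc2, Rad54b, Fancd2, Rmi2, Rbbp8, Exo1, Rad50 and Nbn. The E2F-type letters TTTCCCGC, TTTCGCGC, TTTGCCGC or TTTGGCGC on either strand were found in 5 of these 28 genes (Bard1, Brca2, Fancg, Rad51c and Rmi1) and in 18.8% of their entries, against 2.26% of all 32851 promoters. A CCAAT box was found in 17 of the 28 genes and in 62.5% of entries, against 37.4% of all promoters. The letters TTTGAA, the core of the cell cycle homology region, were found in 3 genes, in 9.38% of entries against 17.9%. The 17 genes with a CCAAT box had a median log2 fold change of -0.91 at 12 h and -0.70 at 24 h, and the 11 without one had -0.42 and -0.88. The 5 genes with E2F-type letters had medians of -0.24 and -0.88, and the 23 without had -0.71 at both times. The 3 genes with TTTGAA had -1.48 and -1.37, and the 25 without had -0.68 and -0.71. At the end of induction the medians were -0.31 with a CCAAT box and -0.12 without one. They were 0.01 with E2F-type letters and -0.31 without, and -0.12 with TTTGAA and -0.31 without. Whether a motif went with the time of the difference was not tested. The matches describe letters within the window and not sites of binding.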

How the data were processed

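Ribosomal-RNA-depleted total RNA was sequenced in pairs, and reads were trimmed with cutadapt and aligned with STAR (GRCm38) by the authors, who used TEtranscripts to count them over genes and repeats. The deposited values are raw counts, with no normalisation. The table held 54842 gene rows, 1561 repeat families and 1 unnamed row (at most 0.00452% of counts), which was left out. Library sizes were summed over genes and scaled by TMM. Genes passing filterByExpr by group (28536) were fitted with edgeR 4.0.16 in R 4.3.3 by the robust quasi-likelihood test, with 12 groups and the replicate number as a block, as in the study's own design; SE was derived as the absolute log2 change over sqrt(F). Adjusted p-values (Benjamini-Hochberg) cover all genes tested. The study's limits are an adjusted p of 0.05, a mean normalised count of 100 and a fold of 2. CPM use TMM-scaled library sizes, and FPKM divide them by merged exon length in the GENCODE annotation. The scripts were tested on simulated data.

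The members, the lists of markers and of other pathway genes, and the tests were chosen with earlier results of these data known. Each member is named under its role. Values per library are given for Brca1, Brca2, Fancd2, Blm, Rad50, Nbn and the 2 lowest and 2 highest members that passed at the end of induction, 12 h and 24 h; those of Fancf, Dna2 and Exo1 were added after their values were seen. Alternatives were other scalings, no low-count filter, DESeq2 1.42.0, no block, the 6 libraries of a time point alone, and single libraries or replicates left out. Counts per library give only a limited precision for Fancf, the least abundant member. MSR-dCas9-Repressor cells were not analysed here.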

Additional observations from a re-analysis of the deposited data

Results flagged for a closer look

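By edgeR's test of the difference itself, 18 members responded unequally to induction in the 2 lines. The change was more negative in the Activator line for Xrcc3 (-1.12), Xrcc2 (-1.07), Brca1 (-0.99), Fancc (-0.83), Fancf (-0.79), Fancb (-0.76), Slx4 (-0.62), Rad54l (-0.54), Fancg (-0.53), Dna2 (-0.50), Mus81 (-0.45), Rad51d (-0.38) and Rad50 (-0.32). It was more positive for Rad54b (0.36), Fancl (0.36), Rad52 (0.37), Fancd2 (0.39) and Brip1 (0.61), of which 4 (all but Brip1) changed sign with mitochondrial scaling.

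The difference between the lines changed from 12 h to 24 h for 14 members. It moved down for Brca2 (-0.81), Rad51c (-0.64), Fancl (-0.59), Fancd2 (-0.50), Rad54b (-0.46), Blm (-0.40), Rbbp8 (-0.37) and Fanci (-0.33), none of which passed with mitochondrial scaling. It moved up for Brca1 (0.38), Rad54l (0.47), Dna2 (0.54), Fancb (0.92), Xrcc2 (1.00) and Fancf (1.01).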

How the results depend on the processing

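On an adjusted p alone, lower members numbered 1 before induction and 19, 19, 25, 30 and 31 from the end of induction to 24 h, and higher members 6, 6, 2, 1 and 1. On induction in the Activator line 14 fell and 11 rose, 18 changes on induction differed between the lines and 14 differences changed from 12 h to 24 h. The following counts use the study's limits. Mitochondrial scaling gave 8, 15, 23 and 26 lower members from the end of induction to 12 h, 10 that fell on induction in the Activator line, 7 that differed on induction between the lines and 3 between 12 h and 24 h. DESeq2 size factors, and DESeq2 itself, each gave 9 lower at 12 h, 7 at 24 h, 1 that differed on induction and 0 between 12 h and 24 h. Library size alone gave 4 that fell on induction in the Activator line and 3 between 12 h and 24 h, and no filter on low counts gave 2 there. With only the 6 libraries of the time point, 6 were lower at 24 h. Less the difference before induction, 2 were lower at the end of induction and 7 at 24 h.

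With single libraries or replicates left out, lower members numbered between 4 and 5 in induced cells, between 6 and 7 after 3 h, between 7 and 10 after 6 h, between 10 and 15 after 12 h and between 6 (without Activator replicate 1 or 3) and 14 after 24 h. They ranged from 1 (without replicate 3) to 3 for the fall on induction in the Activator line, were 1 throughout for the difference on induction, and ranged from 0 (without replicate 1 or 3) to 2 between 12 h and 24 h.

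Mitochondrial scaling turned the log2 fold change of Brca2 negative, with -0.045 in induced cells and, in order of time, -0.016, -0.33 and -0.45 up to 12 h. It turned Brip1 to -0.0011 at the end of induction and -0.58 at 6 h, Rad52 to -0.011, -0.38, -0.66 and -0.36 from the end of induction to 12 h, Fancd2 to -0.18 at the end of induction and -0.29 at 3 h, and Fancl to -0.36 at 3 h. With a replicate or library left out, the 6 h values of Fancd2, Blm and Nbn ranged from -0.18 to 0.29, from -0.16 to 0.20 and from -0.33 to 0.052, the upper ends being without replicate 2. Mitochondrial scaling moved all genes, with their median at 12 h going from 0.12 to -0.49 as Brca2 went from 0.16 to -0.45. Why the mitochondrial share differed, and what lay behind the changes with libraries left out, was not tested. The replicate number was kept as a block because the study's design has it, although same-numbered libraries of the 2 lines correlated at only -0.00672 to 0.222. Without the block the count between 12 h and 24 h was 0, and no other count under these limits moved by over 1.5 times. The 3 libraries per group and, for Fancf, low counts limit the precision.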
